A study of Mus musculus with 42 samples.

Results

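The 10 genes described here encode the main heat shock proteins and chaperones of the cell, and were chosen by symbol (Hspa1a, Hspa1b, Dnajb1, Hsph1, Hsp90aa1, Hspa8, Dnaja1, Hspa5, Hspd1 and Hspe1) from the 24466 gene rows of the RNA-seq count files. Chaperones bind unfolded proteins and release them for folding, with HSP70 proteins at the centre, J proteins (the Dnaj genes) that deliver clients and stimulate the HSP70 ATPase, and nucleotide exchange factors that reset the cycle. Heat and other damage to proteins free the transcription factor HSF1, which binds heat shock elements, arrays of the letters GAA in alternating orientation, and switches on the stress induced chaperone genes. The constitutive forms keep protein folding going in unstressed cells, and each organelle has its own set. In muscle, chaperones also help to assemble and maintain the contractile apparatus.

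The members fell into groups of 5. The stress induced group held the inducible HSP70 genes Hspa1a and Hspa1b, the J protein gene Dnajb1, the nucleotide exchange factor gene Hsph1 and the inducible cytosolic HSP90 gene Hsp90aa1. The constitutive or organelle group held the constitutive HSP70 gene Hspa8, its J protein partner gene Dnaja1, the endoplasmic reticulum HSP70 gene Hspa5 (BiP), and Hspd1 and Hspe1, which encode the mitochondrial chaperonin HSP60 and its lid HSP10. Dnaja1, Hsp90aa1, Hspd1 and Hspe1 are known to have both basal and heat induced expression, so the division is one of degree.

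The study asked how the transcription factor Pax7 shapes the transcriptome and chromatin of muscle precursors. iPax7 cells are mouse myogenic precursors made from embryonic stem cells that carry a doxycycline (Dox) inducible Pax7, and were sorted after embryoid body differentiation. RNA was sequenced from 3 replicates with 0.75 µg/ml Dox (+Dox), 2 replicates kept without it for 3 days (-Dox) and satellite cells, the stem cells of muscle, sorted from the muscle of Pax7-ZsGreen reporter mice (3 replicates). All iPax7 cultures carry the transgene and received FGF, so +Dox and -Dox differ in Dox, whereas satellite cells differ from both in origin, isolation and culture. The growth protocol of the same labels gives the Dox concentration in mg/ml, and the age of the mice was not given in the sources used here. Nothing in the labels says that replicates came from separate cultures or animals, so p-values measure the spread between these libraries, which may be technical.

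Libraries held 39010958 to 54674619 counts on genes, the 3 lowest being the satellite cell libraries. Reads that did not align uniquely came to 7.11% to 7.60% in iPax7 libraries and to 23.6%, 30.1% and 30.7% in satellite cells. Pax7, the gene that Dox induces, had 271 ± 26.7 CPM in the +Dox libraries (mean ± SD, as throughout; CPM is a TMM-scaled count relative to library size), 5.18 ± 0.732 CPM in -Dox and 126 ± 49.3 CPM in satellite cells. The satellite cell marker Calcr had 261 CPM in satellite cells and at most 0.0777 CPM on average in iPax7 cells. Of 17 such markers, 13 were called higher in satellite cells than in +Dox and 2, Pax7 and Sdc3, lower. Of all genes tested, 25.1% were higher and 19.8% lower. Their summed level was 17059 to 24941 CPM in satellite cells, 4430 to 5909 in +Dox and 1514 to 1564 in -Dox. Markers of other cells were also present in satellite cells: the summed level of 8 endothelial markers was 386 to 567 CPM (0.0389 to 3.54 CPM in iPax7 cells), and that of 10 blood and immune markers was 57.7 to 221 CPM (3.33 to 9.82 CPM). The summed level of 10 fibro-adipogenic and fibroblast markers was 2028 to 3370 CPM in satellite cells and 163 to 296 CPM in iPax7 cells. Of these 10 genes, 9 were called higher in satellite cells than in +Dox. Pdgfra averaged only 4.50 CPM in satellite cells, and Ly6a had 55.5 CPM there and 107 CPM in +Dox. Tcf4, which also counts in the sum, had 438 CPM in satellite cells, 44.8 in +Dox and 131 in -Dox. The summed level of 6 glial markers was 1135 to 1349 CPM in satellite cells, 93.2 to 122 CPM in +Dox and 1721 to 1806 CPM in -Dox. Of the endothelial list 5 to 7 of 8 genes, and of the blood and immune list 7 to 9 of 10, were at 0 in each iPax7 library. The defining markers Cdh5 (endothelium) and Ptprc (blood) were at 0 in every iPax7 library and averaged 68.4 and 9.22 CPM in satellite cells, and Hba-a1, of red blood cells, was at 0 in all 8 libraries. In bulk RNA, fewer cells of a type and less RNA per cell cannot be told apart.

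Promoter sequences from RefSeq were available for 8 of the 10 members. They span 250 bases before to 50 bases after a start site on GRCm38.p6. The 5 shown were picked from those with matches to the heat shock or endoplasmic reticulum stress elements. Dnaja1 and Hspd1 also hold heat shock pairs and are not printed. Dnajb1, a stress induced member, had neither element in its windows and is not shown. Hsph1 had 2 overlapping windows with equally many heat shock pairs, and 1 of them is printed. Printed 5′ to 3′ on the strand of the gene, capitals mark pairs of heat shock element units (GAANNTTC or TTCNNGAA) and, in Hspa5, the endoplasmic reticulum stress element (CCAAT, any 9 bases, then CCACG). Hspa1a and Hspa1b lie at chr17:34972107-34972406 and chr17:34959189-34959488 on the minus strand, Hsph1 at chr5:149636287-149636586 on the minus strand, Hspe1 at chr1:55087898-55088197 on the plus strand and Hspa5 at chr2:34771840-34772139 on the plus strand.
Hspa1a: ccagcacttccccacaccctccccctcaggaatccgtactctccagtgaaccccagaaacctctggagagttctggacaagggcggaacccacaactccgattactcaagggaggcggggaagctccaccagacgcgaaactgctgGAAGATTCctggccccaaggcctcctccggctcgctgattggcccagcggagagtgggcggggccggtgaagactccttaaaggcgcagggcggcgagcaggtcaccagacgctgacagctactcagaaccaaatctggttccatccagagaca
Hspa1b: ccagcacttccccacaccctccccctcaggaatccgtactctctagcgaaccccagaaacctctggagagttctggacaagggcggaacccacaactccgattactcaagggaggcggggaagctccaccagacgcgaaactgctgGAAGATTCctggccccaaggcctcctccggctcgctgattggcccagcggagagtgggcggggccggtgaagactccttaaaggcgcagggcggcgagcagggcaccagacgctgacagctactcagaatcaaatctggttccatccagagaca
Hsph1: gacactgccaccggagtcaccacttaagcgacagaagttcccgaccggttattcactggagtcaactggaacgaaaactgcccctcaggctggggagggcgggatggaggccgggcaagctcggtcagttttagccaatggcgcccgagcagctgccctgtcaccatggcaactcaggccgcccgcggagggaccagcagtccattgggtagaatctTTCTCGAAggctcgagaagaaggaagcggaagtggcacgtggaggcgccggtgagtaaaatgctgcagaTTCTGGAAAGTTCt
Hspe1: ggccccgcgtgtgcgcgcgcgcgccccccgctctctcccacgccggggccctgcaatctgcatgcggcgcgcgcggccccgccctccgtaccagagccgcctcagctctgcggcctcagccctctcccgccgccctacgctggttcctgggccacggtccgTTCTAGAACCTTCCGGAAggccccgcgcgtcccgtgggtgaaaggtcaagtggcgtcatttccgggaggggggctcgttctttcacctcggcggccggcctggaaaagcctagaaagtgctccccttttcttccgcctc
Hspa5: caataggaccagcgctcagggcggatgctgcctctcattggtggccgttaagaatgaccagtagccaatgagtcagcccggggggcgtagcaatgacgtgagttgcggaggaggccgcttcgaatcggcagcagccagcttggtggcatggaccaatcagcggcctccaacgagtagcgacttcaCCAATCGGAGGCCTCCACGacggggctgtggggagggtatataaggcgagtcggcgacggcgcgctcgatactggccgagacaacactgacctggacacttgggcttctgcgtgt

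The Hspa1a and Hspa1b windows differed at 4 of 300 bases, and their heat shock pair stood at the same place in both. Searched on both strands, GAANNTTC was found in 6 of the 8 members (Dnaja1, Hspa1a, Hspa1b, Hspd1, Hspe1 and Hsph1), in 9.04% of 27025 genes and in 7.86% of their 32851 promoters of the same length. A gene counts if any of its windows matches, and Dnaja1 had 3 windows, Hspd1, Hsph1 and Dnajb1 had 2 each and the other members 1. The pair TTCNNGAA was found in 3 members (Hspd1, Hspe1 and Hsph1), in 9.60% of genes and in 8.52% of promoters. The same 3 genes held the longer triplet, 3 units of GAA and TTC in alternation with any 2 bases between, which contains both pairs and was found in 0.662% of genes and 0.603% of promoters. In these windows an exact triplet stood in both mitochondrial chaperonin genes and not in Hspa1a or Hspa1b. Imperfect units were not searched for, so a miss does not show that an element is absent. The windows of Hspd1 and Hspe1 cover the same stretch from opposite strands, so theirs is 1 stretch, with 2 overlapping triplets, counted for both genes. The stress element of the endoplasmic reticulum was found in Hspa5 among the members, in 0.137% of genes and in 0.119% of promoters. Shorter general motifs were also present: GGGCGG in 8 of 8 members (38.2% of genes and 35.7% of promoters), CCAAT in 7 of 8 (41.1% and 37.4%) and TATAAA in 0 of 8 (15.7% and 13.6%). A match is a description of these letters in this window and was not tested as a binding site.

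The inducible HSP70 genes were nearly silent in iPax7 cells and abundant in satellite cells. Hspa1a (ENSMUSG00000091971.1, chromosome 17 from 35106144 to 35109069, minus strand, NCBIM37) had 8, 10 and 40 counts in the +Dox replicates, 3 and 1 in -Dox, and 80623, 7266 and 11791 in satellite cells. On the CPM scale these were 0.127, 0.157 and 0.770, then 0.0583 and 0.0195, and then 2244, 206 and 329. All satellite cell replicates lay above all iPax7 replicates, and the lowest satellite cell value was 267 times the highest iPax7 value. The log2 fold change of satellite cells was 11.39 (SE 1.34, adjusted p = 1.98e-04) against +Dox and 14.45 (SE 1.89, adjusted p = 4.34e-04) against -Dox, by edgeR's quasi-likelihood test, adjusted over 14836 genes by the Benjamini-Hochberg method. Since so few counts stood in iPax7 cells, the ratio of pooled counts is given too: 2869 against +Dox (95% counting interval 2220 to 3779) and 23903 against -Dox (9335 to 87729, from 4 counts). These intervals cover counting error only.

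Hspa1b (ENSMUSG00000090877.2, from 35093381 to 35096183 on the same strand), the neighbouring copy of the gene, lies 9960 bp from Hspa1a. It had 4, 0 and 2 counts in +Dox, 0 and 14 in -Dox, and 12816, 1162 and 2875 in satellite cells. Satellite cells at 357, 32.9 and 80.2 CPM were all above the highest iPax7 replicate, which was -Dox replicate 2 at 0.273 CPM. The log2 fold change was 12.08 (SE 1.49, adjusted p = 2.55e-04) against +Dox and 10.14 (SE 1.63, adjusted p = 0.00128) against -Dox by the same edgeR test, with pooled ratios of 4690 (2154 to 12781) and 1155 (688 to 2112). The coding sequences of the pair are 99.4% identical with 8 mismatches, and 59.4% of the 50-base windows of the Hspa1a transcript have an exact copy in Hspa1b. Reads from these stretches cannot be assigned to either gene by unique alignment, so the split between the genes and their levels are uncertain. Hspa1a exceeded Hspa1b 6.29, 6.25 and 4.10 times in the satellite cell replicates. Summed to 1 feature, the pair had a log2 fold change of 11.48 against +Dox (adjusted p = 2.01e-04) and 12.57 against -Dox (adjusted p = 5.59e-04, edgeR). Both genes passed the filter on low counts only through the satellite cells.

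The satellite cell replicates differed widely for this pair, and replicate 1 was the highest for both. Without it, the log2 fold change against +Dox was 9.61 for Hspa1a and 10.61 for Hspa1b, and that against -Dox was 12.66 and 8.67, all still past the threshold of an adjusted p under 0.05. Leaving out +Dox replicate 3, which held 40 of the 58 Hspa1a counts of its condition, raised the value of Hspa1a against +Dox to 12.65. Leaving out +Dox replicate 1 or 2 gave 12.87 or 11.45 for Hspa1b. Against -Dox, leaving out -Dox replicate 1 or 2 gave 15.35 or 13.84 for Hspa1a and 9.15 or 15.85 for Hspa1b, whose -Dox counts were 0 and 14. The direction was higher in satellite cells in each of these fits.

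**Figure D1:**
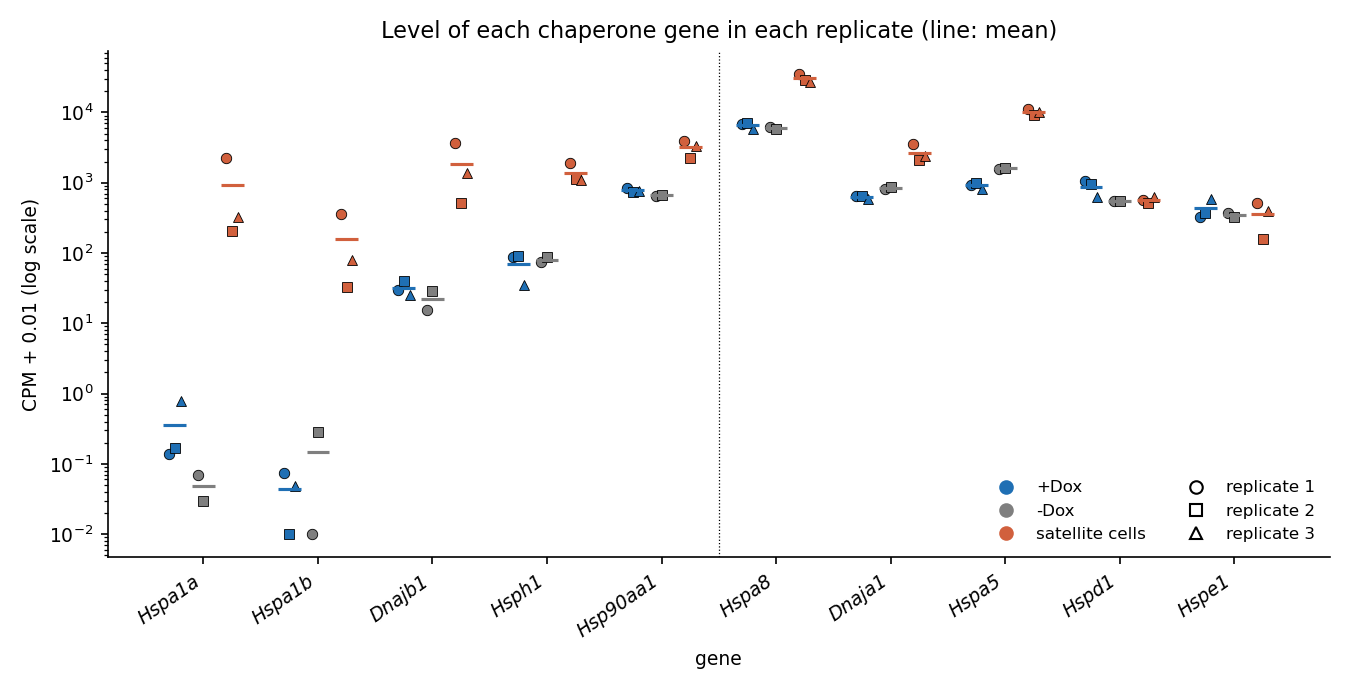
Level of each of the 10 genes in each of the 8 RNA-seq replicates, as CPM + 0.01 on a log axis, with colours for conditions, symbols for replicate numbers and a line at the mean; the dotted line parts the stress induced genes (left) from the constitutive or organelle genes. Hspa1a and Hspa1b stay below 1 CPM in iPax7 cells and lie between 32.9 and 2244 CPM in satellite cells, whereas Hspd1 and Hspe1 lie at similar heights in all conditions.

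Dnajb1 and Hsph1, which encode the J protein and the exchange factor that work with inducible HSP70, were expressed at low levels in iPax7 cells. Dnajb1 (ENSMUSG00000005483.8, chromosome 8 from 86132074 to 86135801, plus strand) had 30.2, 39.5 and 25.6 CPM in +Dox, 15.2 and 28.5 in -Dox, and 3678, 510 and 1393 in satellite cells. Conditions of iPax7 cells overlapped, and each satellite cell replicate stood above them all by at least 12.9 times. Satellite cells were 58.6-fold higher than +Dox (log2 fold change 5.87, SE 0.720, adjusted p = 2.42e-04) and 85.0-fold higher than -Dox (6.41, SE 0.889, adjusted p = 5.78e-04) in edgeR's test. Without satellite cell replicate 1 these log2 values were 4.91 and 5.45. Hsph1 (ENSMUSG00000029657.8, chromosome 5 from 150416862 to 150438951, minus strand) had 87.0, 89.8 and 34.7 CPM in +Dox, 74.3 and 86.8 in -Dox, and 1880, 1120 and 1094 in satellite cells. Here +Dox replicate 3 was the lowest and the satellite cell replicates lay closer together than for Dnajb1. The log2 fold change was 4.28 (SE 0.427, adjusted p = 8.32e-05) against +Dox and 4.08 (SE 0.504, adjusted p = 3.32e-04) against -Dox.

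Hsp90aa1 (ENSMUSG00000021270.7, chromosome 12 from 111928815 to 111940938, minus strand), the inducible cytosolic HSP90 gene, was the one stress induced member with a high level in iPax7 cells. It had 832, 746 and 769 CPM in +Dox, 654 and 664 in -Dox, and 3909, 2264 and 3350 in satellite cells. Satellite cells were 4.06-fold higher than +Dox (log2 fold change 2.02, SE 0.246, adjusted p = 2.36e-04) and 4.82-fold higher than -Dox (2.27, SE 0.290, adjusted p = 3.92e-04), with no overlap of replicates. Hsp90ab1, its constitutive counterpart, which the named gene rule did not pick and which was chosen after its values were seen, had 2581 ± 413 CPM in +Dox, 2662 ± 134 in -Dox and 4278 ± 810 in satellite cells (SD), with a log2 fold change of 0.73 (SE 0.229, adjusted p = 0.0277) against +Dox and 0.68 (SE 0.260, adjusted p = 0.0617) against -Dox.

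Of the constitutive members, the cytosolic pair and BiP rose in satellite cells while the mitochondrial pair did not pass the test. Hspa8 (ENSMUSG00000015656.10, chromosome 9 from 40609067 to 40613283, plus strand), the HSP70 of unstressed cells, had 6897, 6960 and 5732 CPM in +Dox, 6248 and 5870 in -Dox, and 35416, 29118 and 27440 in satellite cells. Its log2 fold change was 2.23 (SE 0.211, adjusted p = 6.76e-05) against +Dox and 2.34 (SE 0.248, adjusted p = 1.63e-04) against -Dox. Hspa8 alone took 0.588% to 0.828% of counts in iPax7 libraries and 3.26%, 2.62% and 2.25% in satellite cells. Dnaja1 (ENSMUSG00000028410.7, chromosome 4 from 40669183 to 40684182, plus strand), a J protein partner of Hspa8, had 637, 651 and 588 CPM in +Dox, 826 and 864 in -Dox, and 3503, 2092 and 2433 in satellite cells. The log2 fold change of Dnaja1 was 2.10 (SE 0.245, adjusted p = 1.93e-04) against +Dox and 1.66 (SE 0.279, adjusted p = 0.00159) against -Dox.

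Hspa5 (ENSMUSG00000026864.7, chromosome 2 from 34627490 to 34632051, plus strand), the HSP70 of the endoplasmic reticulum and a target of the unfolded protein response, had 937, 991 and 818 CPM in +Dox, 1569 and 1640 in -Dox, and 10996, 9178 and 9964 in satellite cells. The conditions stood in 3 separate tiers with no overlap, and Hspa5 had the narrowest spread in satellite cells among the members that rose. Satellite cells were 10.98-fold higher than +Dox (log2 fold change 3.46, SE 0.214, adjusted p = 8.58e-06) and 6.26-fold higher than -Dox (2.65, SE 0.242, adjusted p = 8.97e-05).

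Hspd1 (ENSMUSG00000025980.8, chromosome 1 from 55134679 to 55145087, minus strand) had 1044, 960 and 635 CPM in +Dox, 557 and 545 in -Dox, and 569, 515 and 626 in satellite cells. Every +Dox replicate was above every satellite cell replicate, +Dox replicate 3 by a small margin, and -Dox lay within the satellite cell range. The log2 fold change was -0.63 (SE 0.239, adjusted p = 0.0565, 95% interval -1.16 to -0.09) against +Dox and 0.05 (SE 0.266, adjusted p = 0.906, -0.55 to 0.64) against -Dox. Without +Dox replicate 3 the value against +Dox was -0.81 with an adjusted p of 0.0114, and with library totals in place of TMM it was -1.03 with an adjusted p of 0.00805. Hspe1 (ENSMUSG00000073676.4, chromosome 1 from 55144976 to 55148151, plus strand), which shares the promoter of Hspd1 and overlaps it by 112 bp, had 328, 371 and 588 CPM in +Dox, 372 and 326 in -Dox, and 513, 157 and 402 in satellite cells. All 3 conditions overlapped, and the log2 fold change of -0.27 (SE 0.407, adjusted p = 0.625, -1.18 to 0.65) against +Dox and 0.03 (SE 0.455, adjusted p = 0.967, -0.99 to 1.05) against -Dox had intervals on both sides of 0. The strand setting of the counting was not given in the sources used here, so reads in the overlap may count for either gene.

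Some members share sequence with copies elsewhere in the genome. The share of 50-base windows of the longest coding transcript with an exact copy elsewhere on NCBIM37 was 62.3% for Hspa1b, 61% for Hspa1a, 75.7% for Hspa8, 73.1% for Hsp90aa1, 58.5% for Hspd1, 46.5% for Hspe1 and 25.0% for Dnaja1, and it was 0.768% for Dnajb1 and 0 for Hsph1 and Hspa5. Levels of the first 7 may be too low where reads were dropped. Reads that did not align uniquely were more frequent in satellite cells, and their part in these differences was not tested. Hsph1 and Hspa5, with no such window, were higher in satellite cells by log2 fold changes of 4.28 and 3.46 against +Dox.

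Read against the whole table, 8 of 10 members were higher in satellite cells than in +Dox, where 44.9% of the 14836 genes tested were called, 25.1% higher and 19.8% lower. The same 8 members were higher than in -Dox, where 39% of genes were called, 20.9% higher and 18.1% lower. All 8 also had satellite cell replicates above every iPax7 replicate, against 30.2% of genes that did not overlap in this direction with +Dox (56.5% in either direction, 26.3% lower) and 33.7% with -Dox (64.3% in either direction, 30.6% lower). The median log2 fold change against +Dox was 5.87 for the stress induced members, 2.10 for the constitutive or organelle members and 0.17 for all genes tested. Against -Dox these medians were 6.41, 1.66 and 0.23. Hspa1a and Hspa1b are among these 8 members and enter the stress induced medians. Both passed the filter on low counts only through the satellite cells, which left no other direction open to them. The other stress induced members, Dnajb1, Hsph1 and Hsp90aa1, had log2 fold changes of 5.87, 4.28 and 2.02 against +Dox. The comparisons share the satellite cell libraries, so they are not separate evidence. The whole set took 0.990% to 1.30% of counts in iPax7 libraries and 5.81%, 4.06% and 3.86% in satellite cells.

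**Figure D2:**
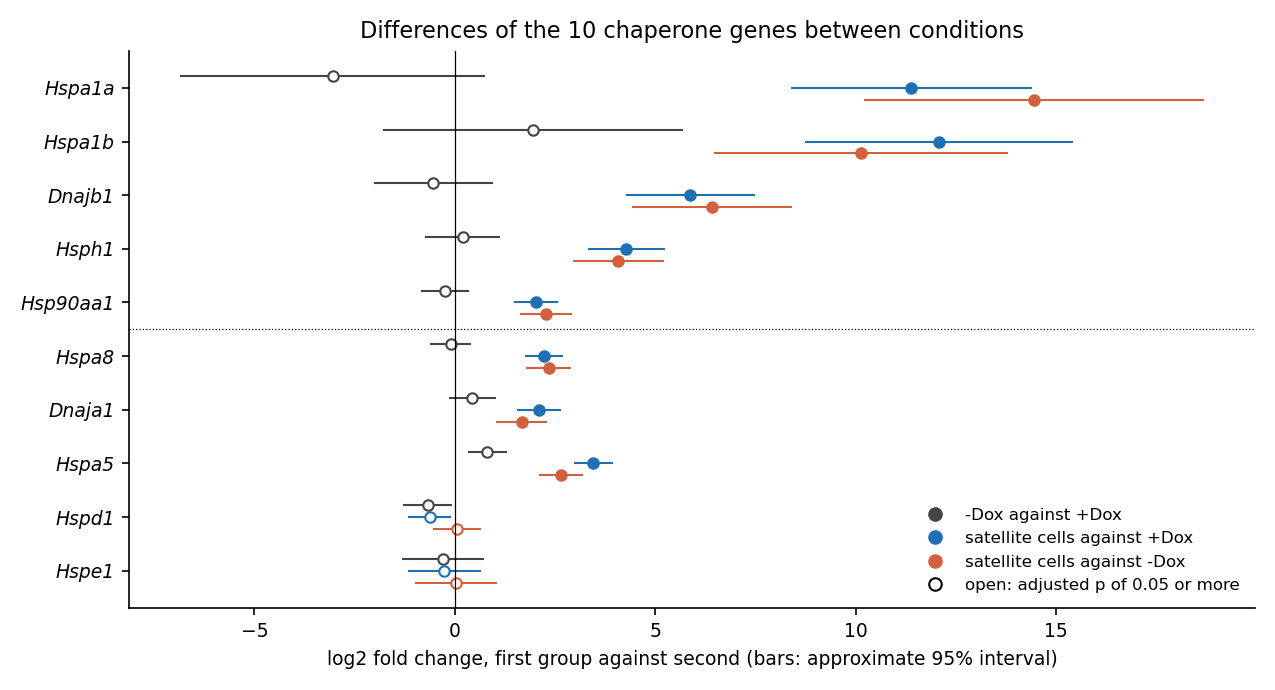
Log2 fold change of each gene in the 3 comparisons, with approximate 95% intervals from edgeR; filled points have an adjusted p under 0.05. The 5 stress induced genes (above the dotted line), Hspa8, Dnaja1 and Hspa5 lie to the right of 0 in both comparisons with satellite cells, and none of the points for -Dox against +Dox is filled.

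Withdrawal of Dox for 3 days, which removes Pax7 and lets the cells differentiate, moved no member past the test. In edgeR's quasi-likelihood test 0 of 10 members were called, against 7.7% of all genes tested (4.66% higher and 3.04% lower). At an unadjusted p under 0.05 there were 2, Hspa5 and Hspd1, and DESeq2 called 1, Hspa5. Replicates did not overlap for 5 members, with Hspa5 and Dnaja1 higher and Hspa1a, Hsp90aa1 and Hspd1 lower in -Dox, against 45.3% of genes (22.7% higher and 22.7% lower). The median log2 fold change was -0.25 for stress induced members, -0.11 for constitutive or organelle members and 0.00 (-0.004923) for all genes.

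Hspa5 came closest to the threshold after Dox withdrawal. Its log2 fold change in -Dox against +Dox was 0.81 (SE 0.215, 95% interval 0.33 to 1.29), a 1.75-fold higher level, with an adjusted p of 0.0512 in edgeR's test. It passed the threshold with DESeq2 size factors (adjusted p = 0.0435), with DESeq2 (0.00209), with a filter at 10 CPM (0.0281), with only both iPax7 conditions in the fit (0.0176) and without satellite cell replicate 1 (0.0222). Hspd1 was lower by a log2 fold change of -0.67 (SE 0.271, adjusted p = 0.183, -1.28 to -0.07), and Dnaja1 was at 0.43 (SE 0.261, adjusted p = 0.391, -0.15 to 1.02). For Hspa8 and Hsp90aa1 the intervals ran from -0.62 to 0.40 and from -0.85 to 0.35, and for Hsph1 from -0.74 to 1.13. Dnajb1 had an interval of -2.03 to 0.95. The counts of Hspa1a and Hspa1b in iPax7 cells were too few for a statement, with intervals of -6.85 to 0.74 and -1.80 to 5.68.

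The balance between the groups was set out per replicate. The stress induced members summed to 949, 876 and 830 CPM in +Dox, 743 and 779 in -Dox, and 12068, 4132 and 6245 in satellite cells. Hsp90aa1 made up most of this sum in iPax7 cells, with means of 782 CPM in +Dox and 659 in -Dox, against 3174 in satellite cells. The constitutive or organelle members summed to 9843, 9933 and 8360 CPM in +Dox, 9573 and 9245 in -Dox, and 50996, 41059 and 40864 in satellite cells. The constitutive sum was thus 10.1 to 12.9 times the stress induced sum in iPax7 cells and 4.23, 9.94 and 6.54 times in satellite cells. The mean log2(CPM + 1) of the stress induced members minus that of the others was -5.83 ± 0.07 for +Dox (3 replicates, SD), -6.02 ± 0.22 for -Dox (2 replicates) and -1.78 ± 0.84 for satellite cells (3 replicates). The iPax7 values depend on the pseudocount, since Hspa1a and Hspa1b were near 0 counts there: with CPM + 10 they were -4.48 and -4.61, and the satellite cell value was -1.75. Hspa1a and Hspa1b, which passed the filter on low counts only through the satellite cells, enter this difference. It was not computed without them. Both sums were higher in every satellite cell replicate than in every iPax7 replicate. Hspa8 stayed the leading HSP70 gene even there, at 13.6, 122 and 67.1 times the summed CPM of Hspa1a and Hspa1b in the satellite cell replicates.

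**Figure D3:**
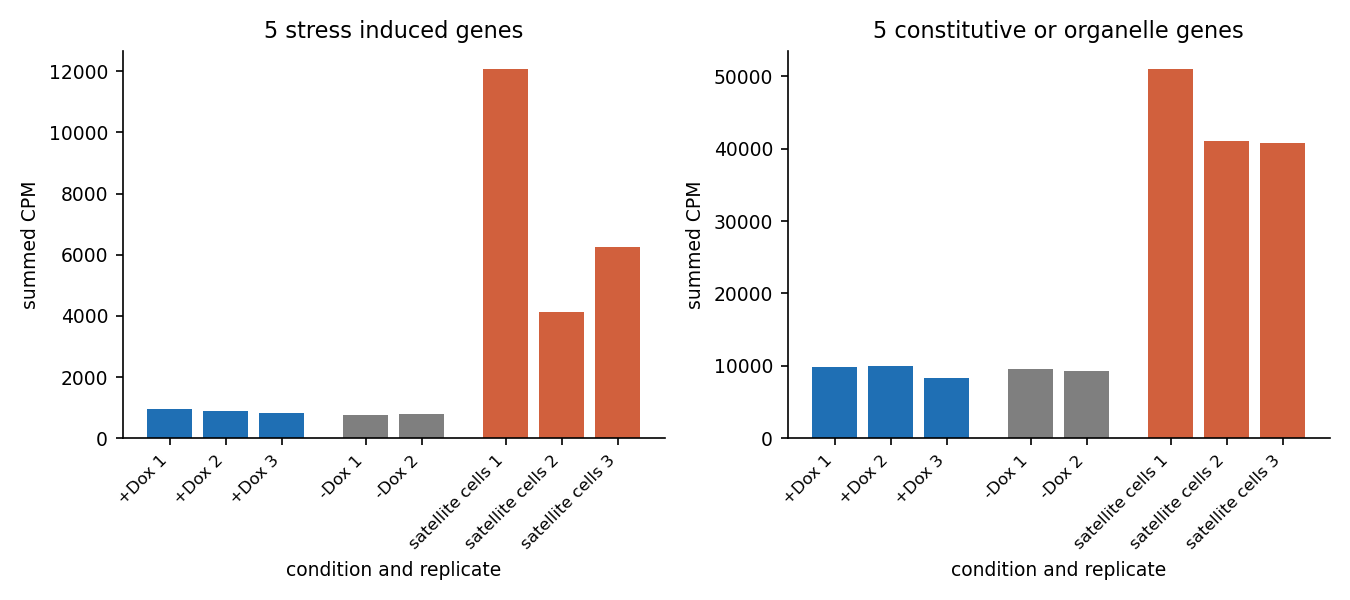
Summed CPM of the 5 stress induced genes (left) and the 5 constitutive or organelle genes (right), 1 bar for each replicate, with separate axes that start at 0. The satellite cell bars range from 4132 to 12068 CPM on the left and from 40864 to 50996 CPM on the right.

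Scaled to gene length (CPM per kb of exon, from the GENCODE models of NCBIM37), Hspa8 was the highest member in all conditions, at 1571 ± 166 CPM per kb in +Dox, 1458 ± 64.3 in -Dox and 7377 ± 1012 in satellite cells (SD). In +Dox it was followed by Hspd1 at 333 ± 81.8 CPM per kb, Hspe1 at 291 ± 94.5 and Hspa5 at 261 ± 25.2, whose ranges overlapped, and then by Hsp90aa1 at 199 ± 11.2 and Dnaja1 at 72.5 ± 3.87. Dnajb1 at 12.9 ± 2.87 and Hsph1 at 10.0 ± 4.41 CPM per kb overlapped, and Hspa1a and Hspa1b came last at 0.120 ± 0.124 and 0.0121 ± 0.0114. In -Dox, Hspa5 stood second at 457 ± 14.3 CPM per kb, clear of Hspe1 at 237 ± 22.3 and Hspd1 at 209 ± 3.24. In satellite cells Hspa5 was second at 2860 ± 260 CPM per kb. The next places, from Hsp90aa1 at 808 ± 213 and Dnajb1 at 753 ± 662 through Hspa1a at 317 ± 391 and Dnaja1 at 310 ± 85.3 to Hspe1 at 242 ± 124, Hspd1 at 216 ± 20.8 and Hsph1 at 194 ± 63.4, had neighbours whose ranges overlapped. Hspa1b was last in satellite cells at 55.9 ± 62.4 CPM per kb, below every value of its neighbour Hsph1. This length joins all transcripts of a gene, and a longer model lowers the value. It was 7042 bp for Hsph1, 8629 bp for Dnaja1, 4156 bp for Hspa8 and 1474 bp for Hspe1. Their longest coding transcripts had 3802, 5622, 2394 and 774 bp, so the order of genes at close levels depends on the length used. The order may also shift with reads dropped from copied sequence, which was not tested. Of the 50-base windows, 62.3% in Hspa1b and 0% in Hsph1 had a copy elsewhere, so the last place of Hspa1b is uncertain.

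The spread among satellite cell replicates was itself uneven over the members. Replicate 1 stood at 2.42, 2.28 and 1.98 times the mean of the 3 replicates for Hspa1a, Hspa1b and Dnajb1, and replicate 2 at 0.222, 0.210 and 0.274 times. For Hspa8 the replicates lay at 1.16, 0.950 and 0.895 times the mean, and for Hspa5 at 1.09, 0.914 and 0.992 times. Replicate 1 was the highest for 9 of the 10 members, Hspd1 being the exception. Immediate early genes such as Fos, Jun and Egr1 respond within minutes to stimulation, and the list of 24 used here also counts the heat shock gene Hspb1. This list summed to 45792, 24203 and 32841 CPM in the same replicates. That order of replicates was also seen for Hspa1a, Hspa1b, Dnajb1, Hsp90aa1, Dnaja1, Hspa5 and Hspe1. The summed satellite cell, blood and immune, and muscle differentiation markers had this order too, whereas the endothelial, fibro-adipogenic and glial markers did not. The part of any of these lists in the spread was not tested.

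**Figure D4:**
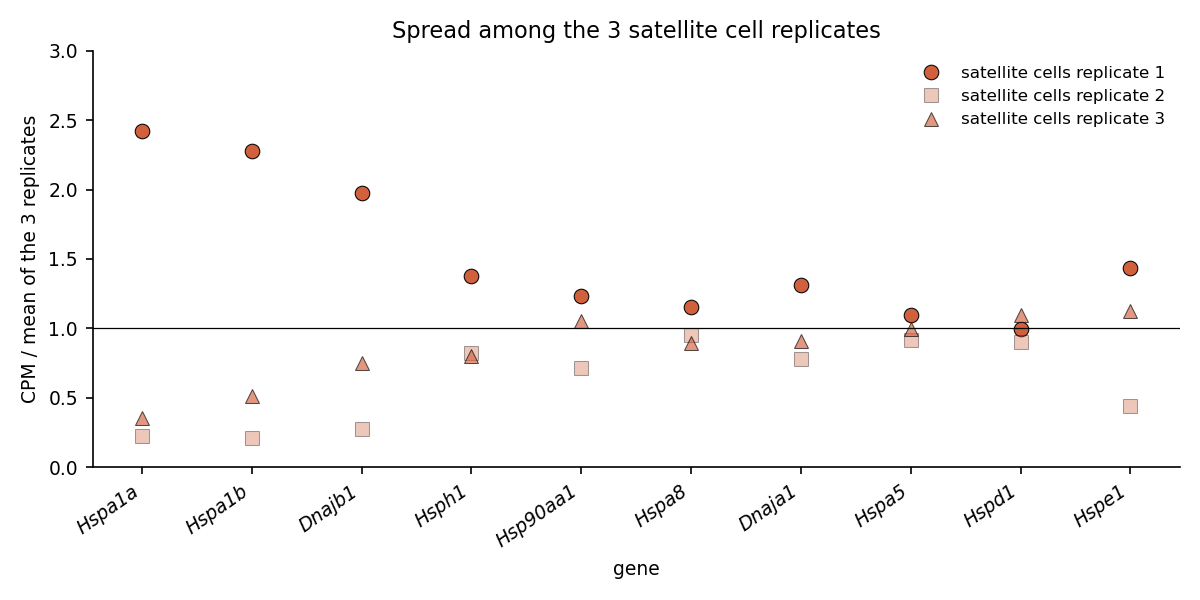
CPM of each gene in each satellite cell replicate divided by the mean of the 3 replicates, on a linear axis; the line marks the mean. Replicate 1 lies at 1.98 to 2.42 times the mean for Hspa1a, Hspa1b and Dnajb1, and within 1.09 to 1.31 times for Hspa8, Dnaja1 and Hspa5.

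Genes around the members in the chaperone network gave a mixed picture. Of 22 heat shock factors and co-chaperones known as HSF1 targets, 9 were higher and 3 lower in satellite cells than in +Dox (40.9% and 13.6%, against 25.1% and 19.8% of all genes), with a median log2 fold change of 0.73. Bag3, the exchange factor that links HSP70 to autophagy, had 71.8 ± 17.98 CPM in +Dox, 65.6 ± 2.37 in -Dox and 2646 ± 730 in satellite cells (log2 fold change 5.20, SE 0.329, adjusted p = 9.19e-06 against +Dox). Dnajb4, a J protein gene, rose from 56.1 ± 9.10 to 475 ± 117 CPM (3.08, SE 0.269, adjusted p = 4.30e-05). Fkbp4, an HSP90 co-chaperone gene, was lower (-1.64, SE 0.308, adjusted p = 0.00238), as was Cacybp (-1.14, SE 0.318, adjusted p = 0.0167). Against -Dox, 8 of the 22 were higher and 3 lower (36.4% and 13.6%, against 20.9% and 18.1% of all genes; median 0.14), with Bag3 and Dnajb4 higher and Hsbp1 and Hspb8 lower. After Dox withdrawal 2 of the 22 were higher and 1 lower, 9.09% and 4.55% against 4.66% and 3.04% of all genes. The higher genes were Cryab (2.83, SE 0.369, adjusted p = 0.00184) and Hspa4l (1.71, SE 0.405, adjusted p = 0.0335), and Fkbp4 was lower (-1.38, SE 0.352, adjusted p = 0.0443). Cryab encodes the small heat shock protein of muscle that binds desmin.

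The cytosolic partners of HSP70 and HSP90, 26 genes tested, had 7 higher and 6 lower in satellite cells than in +Dox (median 0.20). These shares, 26.9% and 23.1%, were near those of all genes, 25.1% and 19.8%. Hspa2, another HSP70 gene, rose (3.61, SE 0.254, adjusted p = 1.45e-05), as did Unc45b, the myosin chaperone gene of muscle (3.80, SE 0.335, adjusted p = 4.55e-05), and Bag2 (-2.93) and Bag1 (-1.52) fell. Against -Dox, 4 were higher and 7 lower (15.4% and 26.9%, against 20.9% and 18.1% of all genes; median 0.12). After Dox withdrawal 4 rose and 0 fell in edgeR's test (median 0.15; DESeq2 called 7, 6 of them higher, and 9 had an unadjusted p under 0.05, 7 of them higher), where 4.66% of all genes were higher and 3.04% lower. The genes that rose included Unc45b, from 0.733 ± 0.04998 to 92.0 ± 1.87 CPM (6.97, SE 0.393, adjusted p = 1.65e-05), and Bag1 (1.57, SE 0.275, adjusted p = 0.00791). Of the 8 subunit genes of TRiC, the chaperonin that folds actin and tubulin, 0 were higher and 1, Tcp1, was lower than in +Dox (-0.86, SE 0.248, adjusted p = 0.0195). Of the 6 genes of prefoldin, which hands clients to TRiC, 0 were higher and 3 lower, with Pfdn6 at -2.25 and Pfdn1 at -2.19, where 25.1% of all genes were higher and 19.8% lower. Against -Dox these lists had 2 and 3 lower and 0 higher, also with 0 higher at an unadjusted p under 0.05. After Dox withdrawal 0 genes of either list passed edgeR's test, had an unadjusted p under 0.05 or were called by DESeq2.

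Among 28 genes of the endoplasmic reticulum and the unfolded protein response, 10 were higher and 5 lower in satellite cells than in +Dox (35.7% and 17.9%, against 25.1% and 19.8% of all genes; median 0.18). Dnajb9, a J protein partner of BiP, rose from 16.9 ± 0.582 to 287 ± 30.3 CPM (4.09, SE 0.240, adjusted p = 6.85e-06), and Herpud1, of the degradation machinery, from 53.6 ± 4.55 to 858 ± 205 CPM (4.00, SE 0.267, adjusted p = 1.14e-05). The protein disulfide isomerase gene Pdia4 (-1.69, SE 0.233, adjusted p = 4.48e-04) and Dnajc10 (-1.64, SE 0.243, adjusted p = 6.89e-04) were lower. Hsp90b1, the HSP90 of the same compartment, named here after its values were seen, had 804 ± 38.9 CPM in +Dox, 1048 ± 65.2 in -Dox and 756 ± 130 in satellite cells, with a log2 fold change of -0.09 (SE 0.210, adjusted p = 0.760) against +Dox, whereas Hspa5 was 10.98-fold higher. Against -Dox, 9 of the 28 were higher and 6 lower (32.1% and 21.4%, against 20.9% and 18.1% of all genes; median -0.01), led by Ppp1r15a, whose product reverses the translational arrest of the stress response (6.47, SE 0.634, adjusted p = 1.16e-04). After Dox withdrawal 5 of the 28 rose and 0 fell in edgeR's test (median 0.34; 13 had an unadjusted p under 0.05, 10 of them higher, and DESeq2 called 10, 7 of them higher), including Dnajb9 (1.64, SE 0.235, adjusted p = 0.00289) and Herpud1 (1.69, SE 0.262, adjusted p = 0.00432), where 4.66% of all genes were higher.

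No mitochondrial chaperone or protease gene was higher in satellite cells in edgeR's test. Of 15 tested, 0 were higher and 6 (40%) lower than in +Dox, against 25.1% and 19.8% of all genes (median -0.73). Against -Dox 0 were higher and 5 (33.3%) lower, where 20.9% and 18.1% of all genes were (median -0.63). At an unadjusted p under 0.05 and in DESeq2, 0 were higher as well. Clpp, a matrix protease subunit gene, fell by 1.89 on the log2 scale against +Dox (SE 0.291, adjusted p = 8.29e-04), and Grpel2, an exchange factor gene of mitochondrial HSP70, fell by 1.71 (SE 0.312, adjusted p = 0.00202). After Dox withdrawal 0 of the 15 passed edgeR's test, 2 had an unadjusted p under 0.05 and DESeq2 called 0. All 24 genes of the immediate early list were higher in satellite cells in both comparisons, with median log2 fold changes of 5.36 and 5.11. Hspb1 stands on both this list and that of the co-chaperones. The immediate early genes, the markers of other cell types and the share of reads without a unique alignment all moved with the satellite cell libraries, and their part in the chaperone differences was not tested. Cell source, isolation and library handling cannot be told apart, since no group held both kinds of cell.

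**Figure D5:**
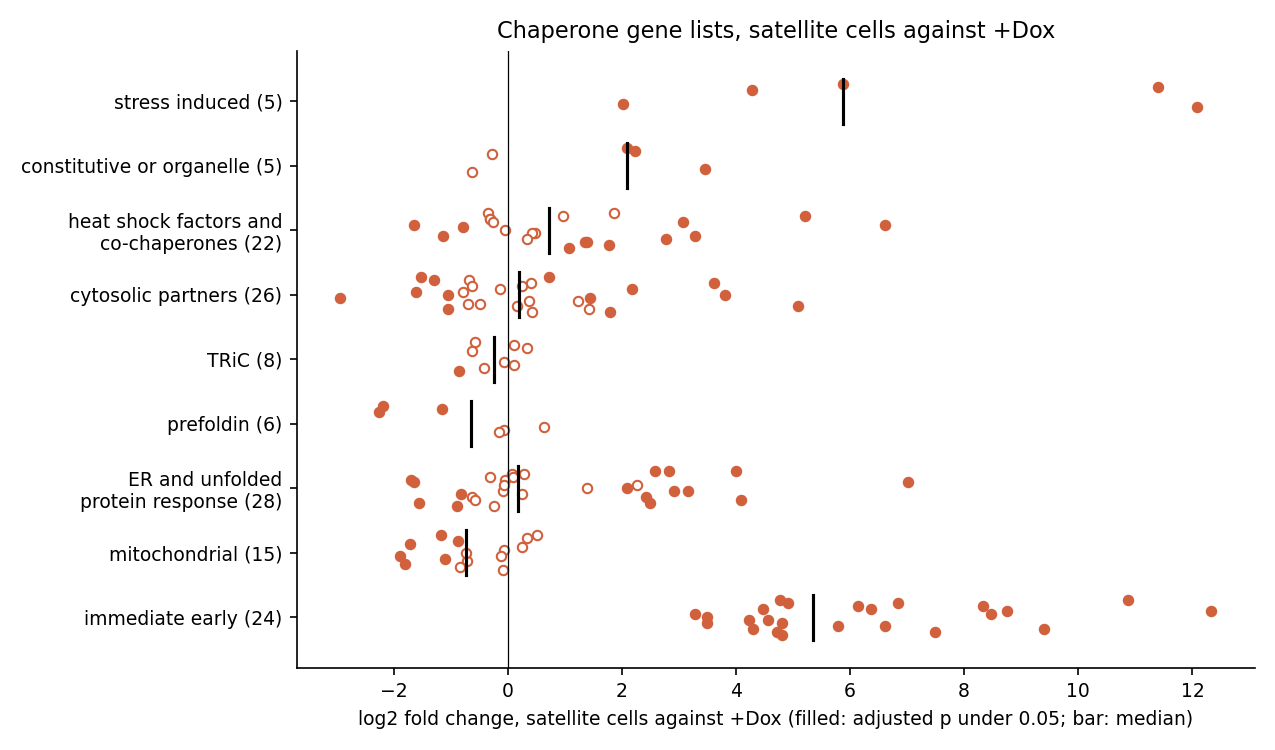
Log2 fold change of satellite cells against +Dox for each tested gene of 9 lists, with the number tested in brackets; filled points have an adjusted p under 0.05 in edgeR's test and bars mark medians. Medians run from 5.87 for the stress induced members and 5.36 for the immediate early genes to -0.65 for prefoldin and -0.73 for the mitochondrial list.

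The genes whose pattern was most like that of a member were sought by Pearson's r on log2(CPM + 1) over the 8 replicates, among 8477 genes with a mean of at least 10 CPM. For Hspa1a these were Casp4 (0.997), Birc3 (0.997), C4b (0.996), Gpx3 (0.996) and Lamc3 (0.996), and its copy Hspa1b came next at 0.995. Gpx3, a secreted peroxidase gene, had 218 ± 34.3, 194 ± 14.7 and 15359 ± 9193 CPM in +Dox, -Dox and satellite cells. For Hspa8 they were Bag3 (0.999), Wsb1 (0.998), Hey1 (0.997), Scara5 (0.997) and Timp4 (0.997). All of these were low in both iPax7 conditions relative to satellite cells, and the points share libraries and depth.

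Chromatin at the start sites was open in every condition, also where the gene was nearly silent. ATAC-seq peaks, which mark accessible DNA, lay within 1 kb of a start site of all 10 members in +Dox, in -Dox at 12 h, 24 h and 3 days, and in satellite cells, against 63.2%, 61.3%, 64.4%, 65.6% and 58.6% of 22232 coding genes. Hspd1 and Hspe1 share a promoter and had the same enrichment and peak length in each condition, so 1 peak there counts for both genes. The highest fold enrichment of such a peak was 8.52 at Hspa1a and 15.6 at Hspa1b in +Dox. For the other 8 members it ran from 50.3 at Dnaja1 to 110 at Hspa8. In satellite cells Hspa1a had 10.2 and Hspa1b 8.59, Hsp90aa1 had 10.4, Dnaja1 13.1 and Hspa8 30.3, and Dnajb1 was highest at 43.4. At 3 days after Dox withdrawal Hspa1a stood at 12.2 and Hspa1b at 15.3. The authors called peaks on merged replicates, so there is 1 value for each condition and no test, and values are not comparable between conditions of different depth. Hspa1a and Hspa1b also share sequence (98.7% of the promoter window), and its part in their lower enrichment was not tested.

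Histone marks were deposited for iPax7 cells. H3K4me3, the mark of active or poised promoters, and H3K4me1 lay within 1 kb of a start site of all 10 members in both +Dox and -Dox, against 60.4% and 66% of genes for H3K4me3 and 61.7% and 64.8% for H3K4me1. H3K27Ac, which marks active promoters and enhancers, lay at all 10 in +Dox and at 9 in -Dox (48.0% and 45.2% of genes), Hspa1a being the one without a peak. Its peak in +Dox was 363 bp long, and the -Dox list held 90168 peaks against 119528 in +Dox. The paper kept only uniquely mapped reads, and the Hspa1a promoter window is 98.7% identical to that of Hspa1b. The part of these in the missing peak was not tested. H3K27me3, the Polycomb mark, lay at 0 of 10 members in both conditions (21.8% and 19.9% of genes). The 2455 Pax7 peaks of +Dox cells lay at 0 of 10 members and at 1.56% of genes. Peaks at the shared promoter of Hspd1 and Hspe1 count for both genes. With 10 genes and 1 peak set for each mark, these are descriptions.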

How the data were processed

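RNA-seq, ATAC-seq and ChIP-seq files of the series were used. For RNA-seq the authors deposited raw counts of reads, 1 file a replicate with gene symbols as rows, not normalized and in HTSeq's layout. Reads without a unique alignment and other rows that name no gene were left out of library sizes and tests, and ambiguous reads came to 1.51% to 2.32%. For ATAC-seq and ChIP-seq the deposited peak lists, called by the authors on merged replicates, give peak positions, and for ATAC-seq the fold enrichment (ratio), signal height and −log10 p or q. The submitters' processing notes name Trimmomatic 0.32, TopHat2 2.0, Bowtie2 2.2 and 2.2.6, HTSeq 0.6, MACS2 2.0.10, Picard, edgeR and mm9 with no role for each, and the RNA-seq read length and strand setting were not given in the sources used here. Files of C2C12 cells and of myotubes were not used.

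Counts were scaled to CPM with TMM sizes, and 14836 genes passed filterByExpr in edgeR 4.0.16 (R 4.3.3). All 8 replicates entered 1 quasi-likelihood fit with a mean for each condition, and 3 contrasts were tested with Benjamini-Hochberg adjustment over all genes tested. A call is an adjusted p under 0.05. SEs and 95% intervals are approximate, from the fold change and the test's F statistic. Alternatives, among them DESeq2 1.42.0, are given in the closing section. In simulated data at the real depths, edgeR recovered 39%, 58% and 28.5% of 200 genes changed 4-fold in -Dox against +Dox, satellite cells against +Dox and satellite cells against -Dox, on 14506, 14489 and 14470 genes, with 0 in the wrong direction. The changed genes were drawn from better expressed ones, and no other simulated gene differed between conditions. Recovery for genes near 0 counts, such as Hspa1a and Hspa1b in iPax7 cells, was therefore not covered.

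Genes and lists were chosen with earlier results of these data known, so list counts are descriptions. From the other lists, up to 2 genes in each direction with the smallest adjusted p are named for each comparison, not all of which are printed. Peaks were matched to GENCODE start sites on NCBIM37 (the mm9 assembly) within 1000 bp each side with an overlap of at least 1 bp, and promoters of 300 bases came from RefSeq on GRCm38.p6.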

Additional observations from a re-analysis of the deposited data

How the results depend on the processing

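The 8 members higher in satellite cells were called in every setting run against both iPax7 conditions, and Hspd1 joined them as a lower gene against +Dox with library totals (9 members) and without +Dox replicate 3 (range when leaving out 1 replicate 8 to 9). Genes called in -Dox against +Dox numbered 1142, but 2137 with DESeq2, 2155 with only both conditions fitted and 488 to 1444 when 1 replicate was left out (508 and 488 without a -Dox replicate, 674 and 630 without +Dox replicate 1 or 2). Of the members, 0 were called there, but 1 (Hspa5) with DESeq2 size factors, DESeq2, the 10 CPM filter or only both conditions, and 0 to 1 when 1 replicate was left out. For satellite cells against +Dox 6657 genes were called (5159 to 6650 when 1 replicate was left out), and against -Dox 5780 (3204 to 6131; 3204 and 3382 without a -Dox replicate, where the lone sample is assumed to vary like the others).

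The replicate number as a block, in fits of only the conditions compared, gave 4017 genes and 3 members in -Dox against +Dox: Hspa5 (0.74), Hspd1 (-0.86) and Dnajb1 (-0.73). +Dox replicate 3 has no partner there. The r between deviations of same-numbered replicates was -0.05 and 0.05 in -Dox against +Dox. It was -0.11, 0.08 and 0.01 in satellite cells against +Dox. With only 2 replicates the -Dox deviations mirror each other, so these values cannot show whether same-numbered samples share a culture or batch. The block changed no call of a member in the satellite cell comparisons.

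Directions that reversed were all of values short of the threshold. In -Dox against +Dox, Hspa1b went from 1.94 to -1.09 when summed with Hspa1a and ranged from -3.81 to 2.93 when 1 replicate was left out, and Hsph1 went from 0.19 to -0.045 with library totals and -0.14 with the block (-0.13 to 0.42). In satellite cells against +Dox, Hspe1 ranged from -0.62 to 0.094 when 1 replicate was left out. In satellite cells against -Dox, Hspd1 took -0.12 with library totals, -0.010 with only both conditions and -0.073 with the block (-0.021 to 0.12), and Hspe1 took -0.14, -0.035 and -0.34 (-0.32 to 0.39). The cause was not tested.

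Library totals moved the median of all genes from 0.00 (-0.004923) to -0.22 in -Dox against +Dox and from 0.17 to -0.20 in satellite cells against +Dox, and the share of calls that were higher from 60.5% to 48.3% and from 55.8% to 43.4%. The difference between stress induced and constitutive members was -4.48 in +Dox and -4.61 in -Dox with a pseudocount of 10 CPM, -5.17 in both with Dnaja1 among the stress induced genes, and -5.90 in +Dox with library totals. Peak counts at members did not move with a window of 500 bp, an overlap of 100 bp or, for ATAC-seq, a −log10 q of at least 10. Few counts limit Hspa1a and Hspa1b in iPax7 cells, and copied sequence limits Hspa1a, Hspa1b, Hspa8 and Hsp90aa1.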
